A study of Mus musculus with 5 samples.

Results

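Lambda light chain plasma cells were 162 of the 5476 plasma cells in 5 single-cell libraries, chosen by their raw counts of light chain constant region transcripts. A cell was counted as lambda when it held at least 10 unique molecular identifiers (UMIs, each standing for 1 captured RNA molecule) of the constant genes, of which at least 70% came from the lambda side. Cells of the same library with at least 70% Igkc, the kappa constant gene, were the reference, and there were 5218 of them. Of the lambda constant genes only Iglc2 was used: Iglc1 and Iglc3 were not analysed here, so the lambda side of the rule was Iglc2 alone. The remaining cells were 92 with neither chain at 70%, called mixed below, and 4 with too few light chain UMIs.

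All cells came from untreated, unimmunized male C57Bl6/N mice, 8 to 12 weeks old, with high CD138 (syndecan-1, a plasma cell surface protein) and without Ly6g or CD11c, markers of granulocytes and dendritic cells. They were sorted by B220, a form of CD45 that is lost as B cells become plasma cells, and by how much 2NBDG, a glucose analog that fluoresces, they took up. Of the 5 libraries 4 came from spleen and covered the combinations of B220+ or B220- with 2NBDG+ or 2NBDG-. The fifth held bone marrow cells sorted as B220-2NBDG+. Each was a pool of 3 mice and the only library of its group. Lambda and kappa cells were therefore compared within libraries. Every p-value below rests on these 5 libraries or on fewer of them (3 for IgM cells), and no label names separate animals for them.

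An antibody pairs identical heavy chains with identical light chains, which are either kappa or lambda, and a B cell that has settled on a light chain normally keeps it. Most light chains of laboratory mice are kappa. The mouse lambda locus is small: Iglv2 and Iglv3 are usually joined to Iglc2, and Iglv1, which lies downstream of Iglc2, is usually joined to Iglc3 or Iglc1. The heavy chain constant gene sets the class, IgM before class switching and IgG or IgA after it.

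The ends of the coding sequences show how far a count of Iglc2 can stand for its relatives, since this assay reads RNA from the 3' side. Below are the last 75 coding bases of the 3 constant genes, stop codon included, and the last 60 of Iglv2 and Iglv1, 5′ to 3′ on the minus strand of chromosome 16 (GRCm38, GENCODE M21). Capitals mark bases that differ from Iglc2 in the constant genes and from Iglv2 in Iglv1.
Iglc2: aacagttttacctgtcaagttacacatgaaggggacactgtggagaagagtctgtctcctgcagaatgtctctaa
Iglc3: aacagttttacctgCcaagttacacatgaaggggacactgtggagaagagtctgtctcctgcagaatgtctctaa
Iglc1: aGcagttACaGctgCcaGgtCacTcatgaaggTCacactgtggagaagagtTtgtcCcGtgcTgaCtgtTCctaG
Iglv2: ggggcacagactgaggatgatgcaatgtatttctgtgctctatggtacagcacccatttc
Iglv1: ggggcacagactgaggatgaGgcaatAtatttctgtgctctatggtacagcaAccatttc

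These stretches lie at chr16:19198536-19198610 for Iglc2, chr16:19065365-19065439 for Iglc3, chr16:19061752-19061826 for Iglc1, chr16:19260401-19260460 for Iglv2 and chr16:19085017-19085076 for Iglv1. Over these stretches Iglc3 differed from Iglc2 at 1 base and Iglc1 at 18. Over the whole aligned coding sequence Iglc3 matched Iglc2 at 306 of 317 bases (96.5%), and Iglc1 matched it in 236 of 321 alignment columns (73.5%). Of the 50-base windows of the Iglc3 transcript 43 of 403 were also found in Iglc2, against 0 of 405 windows of Iglc1. A read from a stretch that Iglc2 and Iglc3 share can be counted under either gene or lost, so Iglc2 counts are uncertain to that extent. Iglv1 and Iglv2 matched at 340 of 351 bases (96.9%), and 76 of 342 windows of Iglv1 were also found in Iglv2.

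The 162 lambda cells were unevenly spread over the libraries, with 117 in splenic B220-2NBDG-, 18 in splenic B220-2NBDG+, 16 in B220+2NBDG-, 6 in B220+2NBDG+ and 5 in bone marrow. The light chain RNA of most members was nearly all lambda: 145 of the 162 had a lambda share of at least 90%, 12 lay between 80 and 90% and 5 between 70 and 80%. The member nearest to the threshold held 3243 Iglc2 and 1308 Igkc UMIs, a lambda share of 71.3%, and the nearest cell outside it had 69.8%. In splenic B220-2NBDG- the members held 116 to 9790 Iglc2 UMIs with a median of 3076, and a median of 42 Igkc UMIs. In the other libraries the median was 2317 Iglc2 UMIs in B220+2NBDG-, 4252 in B220+2NBDG+, 5336 in splenic B220-2NBDG+ and 4470 in bone marrow. Kappa cells also held some Iglc2, with a median of 40 to 61 UMIs per library and a 95th percentile of 125 to 176. These values chose the cells and carry no test.

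**Figure D1:**
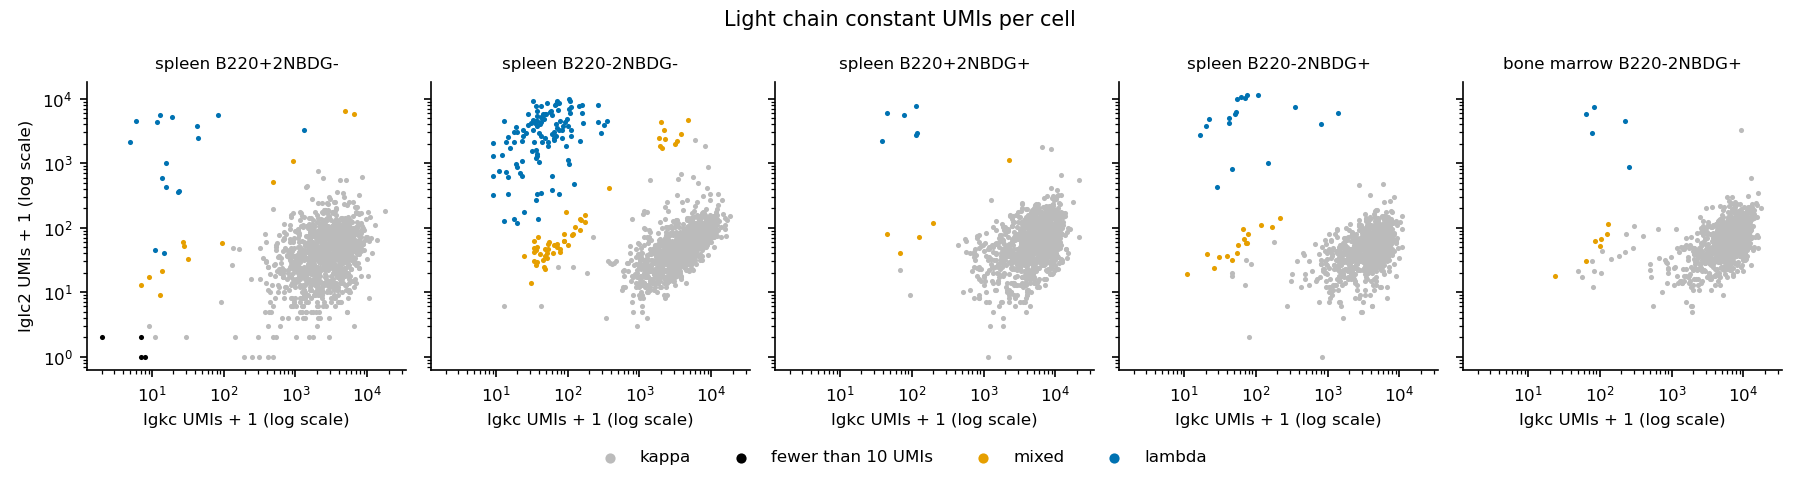
Iglc2 against Igkc UMIs per cell, each plus 1 on log axes, in the 5 libraries, with cells coloured by light chain class. The 162 lambda cells lie apart from the kappa cells in most cases, and 117 of them are in splenic B220-2NBDG-.

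The members were plasma cells by their markers. At least 1 UMI of Jchain, which joins IgM and IgA into polymers, was found in 162 of 162 lambda cells, of Xbp1, a transcription factor of secretory cells, in 160, and of Sdc1, the gene of CD138, in 123 (75.9%). Cd79a, part of the B cell receptor, was detected in 153. Markers of other cell types were scarce: of 13 T cell markers 8 were at 0 in the lambda cells, and the 13 together reached 0 to 14.7 CPM (counts per 1e6 UMIs outside immunoglobulin genes) against 9.93 to 39.7 CPM in kappa cells. Of 12 macrophage markers 9 were at 0, and their sum, 24.1 to 155 CPM against 27.3 to 69.9 CPM in kappa cells, came mostly from Cd68 (38 of 46 UMIs). No lambda cell was called a doublet, none shared its barcode with another library, and none held 3 or more T cell UMIs.

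The lambda cells fell into groups by the variable gene that led their lambda transcripts, which is not independent of the rule. A leading gene had at least 3 UMIs and at least 70% of the Iglv UMIs of the cell. Iglv2 led in 92 of 162 members (56.8%, exact 95% binomial interval 48.8 to 64.5%), Iglv1 in 53 (32.7%, 25.6 to 40.5%) and Iglv3 in 9 (5.56%, 2.57 to 10.3%), and 8 had no leading gene. All such intervals cover counting error only. Iglv2-led members held a median of 4874 Iglc2 UMIs, with 766 as the lowest, and a median of 1898 Iglv2 UMIs. Iglv1-led members held a median of 874 Iglc2 UMIs, ranging from 40 to 4470, and a median of 1853 Iglv1 UMIs. Both sets held little Igkc, with medians of 50.5 and 37 UMIs. The yield of variable gene UMIs differed between libraries while that of Iglc2 did not follow it. Iglv2-led members held a median of 117 Iglv2 UMIs in splenic B220+2NBDG- (9 cells) and 416.5 in splenic B220-2NBDG+ (12 cells). Their medians were 2263 in B220-2NBDG- (66 cells), 2493 in B220+2NBDG+ (3 cells) and 2660 in bone marrow (2 cells). Their median Iglc2 was 4281 and 6852 UMIs in the first pair and 4503, 6079 and 6630 in the other libraries. Iglv1 in Iglv1-led members was low in the same pair, with medians of 245.5 and 494 UMIs (6 and 3 cells). In the other libraries it was 1998, 3566 and 5515 (40, 2 and 2 cells).

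Many cells outside the lambda class also carried abundant Iglv1. When the UMIs of Iglv1, Iglv2 and Iglv3 were added to the lambda side, an alternative chosen after the data were seen, 271 cells were called lambda in place of 162. Of the 109 added cells 77 had been mixed and 32 kappa, and all but 1 of them were led by Iglv1. The added cells held a median of 2414 Iglv1, 70 Igkc and 44 Iglc2 UMIs, so their Iglc2 was at the level found in kappa cells. They were spread more evenly than the members, with 47 in splenic B220-2NBDG-, 23 each in splenic B220-2NBDG+ and bone marrow, 9 in B220+2NBDG- and 7 in B220+2NBDG+. The part that the library differences in Iglv1 yield play in these numbers was not tested. The lambda share moved from 9.41 to 12.8% of called cells in B220-2NBDG-, from 2.05 to 4.60% in splenic B220-2NBDG+ and from 0.537 to 2.99% in bone marrow.

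The 161 cells led by Iglv1 under that wider call were cut at the 95th percentile of Iglc2 in the kappa cells of their library. This put 51 cells above it (median 887, 138 to 4470 UMIs) and 110 cells within it (median 43, 1 to 136 UMIs). The cut itself sets these 2 ranges apart, and membership also rests on Iglc2. Of the 51 cells with high Iglc2, 47 were members and 39 were in B220-2NBDG-. Of the 110 cells with low Iglc2, 6 were members, 47 were in B220-2NBDG- and 23 in bone marrow. By heavy chain class, 2 of the 51 with high Iglc2 and 29 of the 110 with low Iglc2 were IgA, and 47 and 70 were IgM. These are sums over libraries that differ in IgA: 39 of the 51 came from B220-2NBDG-, where 0 of 39 high and 4 of 47 low cells were IgA, and 16 of the 29 IgA cells came from bone marrow, which held 2 high cells. In splenic B220-2NBDG+ the IgA cells were 2 of 4 high and 8 of 22 low cells. A difference in class between the 2 sets was not tested. Which constant gene the Iglv1-led cells with low Iglc2 used was not analysed here.

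**Figure D2:**
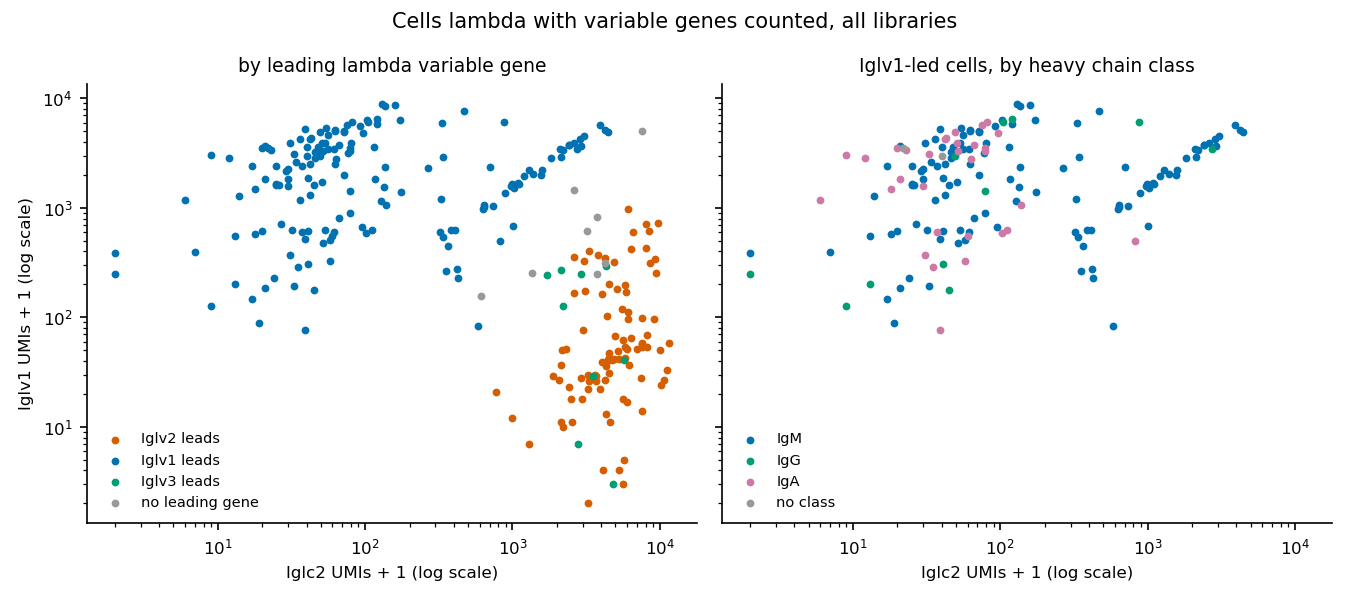
Iglv1 against Iglc2 UMIs per cell, each plus 1 on log axes, for the 271 cells called lambda with variable genes counted. The left panel colours cells by leading variable gene and the right panel shows the Iglv1-led cells by heavy chain class, of which 51 lie above and 110 within the Iglc2 range of kappa cells.

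The heavy chain class, which the rule did not use, was mostly IgM in the lambda cells. Class was called from at least 10 heavy chain constant UMIs with at least 70% from 1 gene, and Ighd was not analysed here. Of the 162 members 143 were IgM, 18 IgG and 1 IgA, against 2871 IgM, 1219 IgG and 1060 IgA of 5152 kappa cells with a call. The 18 IgG members were 8 Ighg3, 6 Ighg2c and 4 Ighg2b, with 0 for Ighg1. A leading heavy chain variable gene could be named in only 6 of the 162 members, with 5 different genes among them.

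IgA was 0% of the lambda cells in B220+2NBDG- (of 16 cells), B220-2NBDG- (of 117), B220+2NBDG+ (of 6) and bone marrow (of 5), and 5.56% in splenic B220-2NBDG+ (1 of 18). In kappa cells of the same libraries it was 6.54%, 11.8%, 8.98%, 59.6% and 24.1%. The lambda share was the lower in each of the 5 libraries, and the highest lambda value lay below the lowest kappa value. The mean difference was -21.1 percentage points (SD 22, n = 5), with p = 0.062 by a two-sided exact sign-flip permutation test, the smallest p that 5 libraries allow, and 0.1875 after Benjamini-Hochberg adjustment over 3 classes. With so few members in B220+2NBDG+ and bone marrow, a count of 0 there says little.

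Libraries are given from here on in the order B220+2NBDG- (spleen), B220-2NBDG- (spleen), B220+2NBDG+ (spleen), B220-2NBDG+ (spleen) and bone marrow. IgM made up 75%, 96.6%, 16.7%, 72.2% and 80% of the lambda cells, against 58.6%, 81.9%, 40.6%, 62.7% and 31.3% of the kappa cells. It was higher in lambda cells in 4 of 5 libraries, by a mean of 13.1 points (SD 25.8; exact p = 0.3125). IgG differed by 8.07 points (SD 16.3; exact p = 0.4375). Neither difference exceeded the spread between libraries.

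The low IgA share depended on which cells were called lambda. With the variable genes counted, IgA reached 57.1% of 28 lambda cells in bone marrow (37.2 to 75.5%) and 24.4% of 41 in splenic B220-2NBDG+ (12.4 to 40.3%). The mean difference from kappa cells shrank to -3.51 points (SD 4.33; exact p = 0.25), and IgM and IgG differed by 3.42 and 0.13 points. IgA was found in 31 of the 159 Iglv1-led cells with a class call (19.5%, 13.6 to 26.5%). It was found in 0 of the 93 Iglv2-led cells, which allows up to 3.23%, and in 0 of the 9 Iglv3-led cells. Of those 93 cells 67 were in B220-2NBDG-, where 4 of 86 Iglv1-led cells were IgA (4.65%), and 12 were in splenic B220-2NBDG+, where 10 of 26 were (38.5%). Bone marrow held 2 Iglv2-led cells, and the difference between Iglv1-led and Iglv2-led cells was not tested. In bone marrow 16 of 25 Iglv1-led cells were IgA (64%, 42.5 to 82.0%), where 59.6% of kappa cells were.

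**Figure D3:**
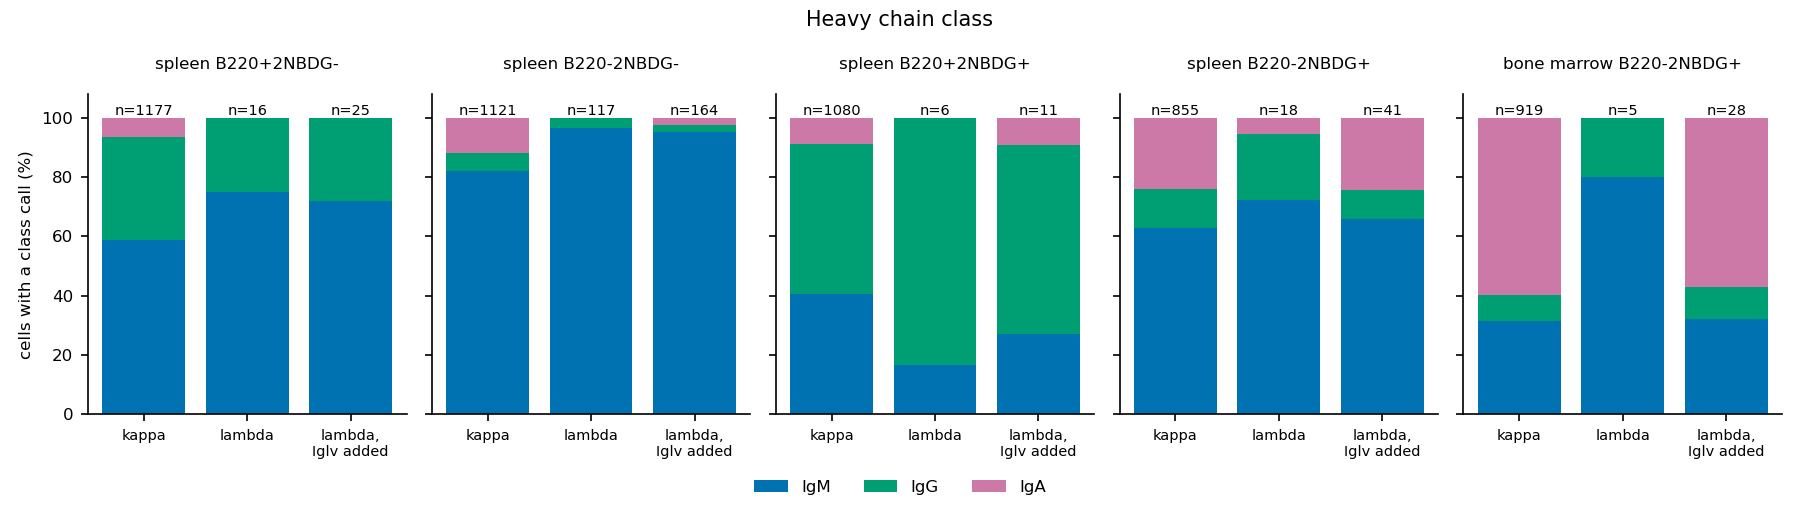
Percent of cells called IgM, IgG and IgA in each library for kappa cells, lambda cells by the constant gene, and lambda cells with variable genes counted, with the number of cells above each bar. IgA is 0 to 5.56% of lambda cells by the constant gene and reaches 57.1% in bone marrow once variable genes are counted.

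RNA content was compared through 4 measures per cell, and none of the 4 differences passed the exact permutation test. The median number of UMIs outside immunoglobulin genes in lambda cells was 3140, 3927, 4471, 4551 and 6293 in the library order above, and in kappa cells 4535, 3678, 4722, 4378 and 5924, a mean difference of -171 (SD 723; exact p = 0.8125). Genes detected per cell after thinning to 2000 UMIs were lower in lambda cells in 4 of 5 libraries, by a mean of 37.5 (SD 43.8; exact p = 0.125). Among IgM cells they were lower in 3 of 3 libraries, by a mean of 72 (SD 42.4; exact p = 0.25, the smallest that 3 libraries allow). Jchain differed by 1.21% of UMIs outside immunoglobulin genes (SD 6.64; exact p = 0.625) and heavy chain constant RNA by -0.74% of all UMIs (SD 2.64; exact p = 0.6875). Cycling cells, with 3 or more UMIs of a cell cycle list, made up 4 of 16, 9 of 117, 2 of 6, 0 of 18 and 1 of 5 lambda cells. These are 25%, 7.69%, 33.3%, 0% and 20%, against 35.2%, 10.9%, 14.7%, 8.02% and 10.2% of kappa cells.

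Across the transcriptome lambda cells differed from kappa cells in few genes. UMIs were summed over the lambda and over the kappa cells of each library, and the sums were compared by edgeR's quasi-likelihood test with the library as a block, immunoglobulin genes left out. This test shares information on spread across genes, so its p-values do not measure the spread between libraries alone. Each standard error (SE) below was calculated back from the log2 difference and the test statistic, so it carries the same limit. Of 7421 genes tested, 19 were higher in lambda cells (0.256%) and 33 lower (0.445%), 0.701% in all, at a Benjamini-Hochberg adjusted p under 0.05. A second fit used only cells called IgM, in the 3 libraries with 5 or more such lambda cells (B220+2NBDG-, B220-2NBDG- and splenic B220-2NBDG+), since the classes were unequally represented. In that fit 11 of 6703 genes were higher (0.164%) and 12 lower (0.179%), 0.343% in all. The same 15 genes passed in both, 9 higher and 6 lower, which is 28.8% of the genes called over all cells and 65.2% of those called among IgM cells. The fits share most of their cells. The median log2 difference over all genes was -0.16 over all cells and -0.10 among IgM cells, so single values are best read against that shift.

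The precision of these sums was limited by the lambda cells, whose UMIs outside immunoglobulin genes came to 69917, 477193, 25847, 83043 and 34299 per library. A single UMI was thus worth 14.3, 2.1, 38.7, 12.0 and 29.2 CPM.

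**Figure D4:**
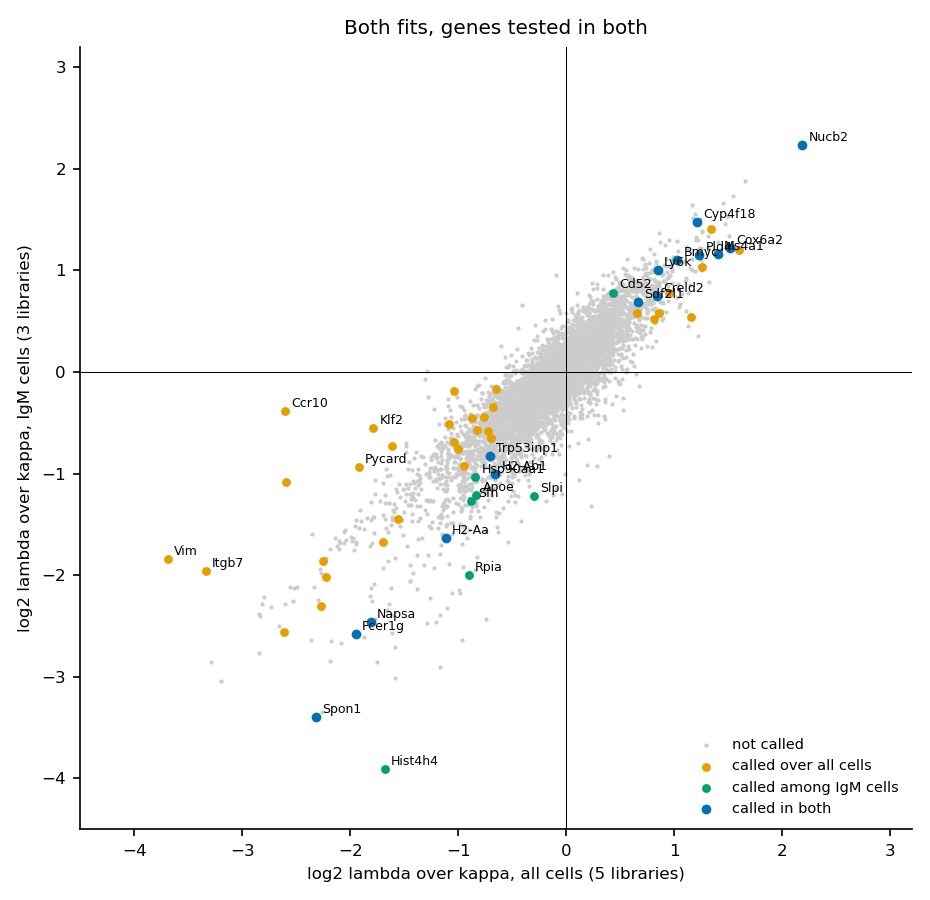
Log2 difference (lambda over kappa) of each gene over all cells, on the horizontal axis, against that among IgM cells, on the vertical axis, for genes tested in both fits. Genes called in both, such as Nucb2 (2.18 and 2.23) and H2-Aa (-1.12 and -1.64), lie near the diagonal, whereas Itgb7 (-3.34 and -1.96) was called over all cells only.

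The gene with the largest rise called in both fits was Nucb2 (chr7:116504369-116540584), which encodes nucleobindin 2, a calcium-binding protein of the secretory pathway. Nucb2 stood at 28.6, 155, 77.4, 157 and 29.2 CPM in the lambda cells of the 5 libraries. In the kappa cells it stood at 29.6, 33.2, 22.4, 14 and 5.02 CPM. Lambda cells were higher in 4 of 5 libraries and slightly lower in B220+2NBDG-, and the ranges over libraries overlapped at their ends. The lambda value stands on 2 UMIs of 1 cell in B220+2NBDG+ and on 1 UMI in bone marrow. At least 1 UMI was found in 51 of 162 lambda cells (31.5%) and in 7.65% of kappa cells. Such shares of cells, here and below, are pooled over libraries. B220-2NBDG- held 117 of the 162 lambda and 1127 of the 5218 kappa cells, so the shares also carry differences between libraries. The log2 difference was 2.18 (SE 0.29; edgeR adjusted p = 6.73e-11) over all cells and 2.23 (SE 0.30; adjusted p = 1.03e-09) among IgM cells. Without B220-2NBDG- the IgM value was 2.12 and no longer passed (adjusted p = 0.628).

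Ms4a1 and Ly6d, genes of B cell surface proteins, rose in lambda cells. Of 20 B cell identity genes 13 were tested; 2 rose over all cells, Ms4a1 and Ly6d, and 2 among IgM cells, Ms4a1 and Cd52, with list medians of 0.07 and 0.22. Ms4a1 (chr19:11249675-11266241), the gene of CD20, stood at 272, 499, 348, 253 and 408 CPM in lambda cells in the order above and at 151, 182, 113, 92.5 and 68.8 CPM in kappa cells. Every lambda value lay above every kappa value, and 74.7% of lambda against 33.2% of kappa cells held at least 1 UMI. Its log2 difference was 1.40 (SE 0.20; edgeR adjusted p = 3.06e-09), and 1.16 (SE 0.23; adjusted p = 0.000317) among IgM cells. The IgM value was 0.93 without B220-2NBDG- and 1.12 without splenic B220-2NBDG+, and passed in neither case. Cd79a (-0.05) and Cd79b (-0.21) did not pass over all cells. Pooled over libraries, the share of cells with Ly6d, a small surface protein of lymphocytes, was 96.3% against 75.8%. In kappa cells Ly6d itself varied by library, with 1989 CPM in B220-2NBDG- and 751 and 731 CPM in B220+2NBDG- and B220+2NBDG+. Its log2 difference was 0.85 (SE 0.16, edgeR adjusted p = 3.29e-05), and it missed the threshold without splenic B220-2NBDG+ (0.87). Cd52 among IgM cells (0.78) missed the threshold without that library (0.36) or B220-2NBDG- (0.69).

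Cyp4f18 (chr8:71988482-72009626), a cytochrome P450 of lipid mediator breakdown, stood at 200, 430, 38.7, 361 and 233 CPM in lambda and 99.5, 136, 79.3, 112 and 153 CPM in kappa cells. It was higher in lambda cells in every library but B220+2NBDG+, where 38.7 CPM is a single UMI. In bone marrow 4 of its 8 lambda UMIs came from 1 cell, without which it was at 148 CPM, below kappa cells. Such values without the cell with most UMIs were chosen after the data were seen. Its log2 difference was 1.21 (SE 0.20; edgeR adjusted p = 2.32e-06) over all cells and 1.48 (SE 0.23; adjusted p = 1.15e-07) among IgM cells. Over all cells it no longer passed without B220-2NBDG- (0.87) or without splenic B220-2NBDG+ (0.96). Pld4 (chr12:112760655-112768990), an endolysosomal exonuclease, rose in both fits, by 1.23 and 1.16, and was higher in 5 of 5 libraries. In B220+2NBDG- 7 of its 12 lambda UMIs came from 1 cell, without which it was at 88.5 CPM, below kappa cells, and in splenic B220-2NBDG+ it was level with kappa cells without 1 cell (52.6 against 52.7 CPM). Without B220-2NBDG- it was 0.82 and 0.44, and without cycling cells 1.01 over all cells, and passed in none of these. Cox6a2, a subunit of cytochrome c oxidase best known from muscle, rose by 1.51 and 1.22, but was higher in only 3 of 5 libraries and missed the threshold without B220-2NBDG- (1.08 and 0.76). Bmyc (1.03 and 1.10) and Ly6k (0.85 and 1.01) also rose in both. Bmyc rested on B220-2NBDG-, without which it was 0.07 and -0.031. Of the 284 Ly6k UMIs in lambda cells 61 came from 1 cell, it was at 0.19 without B220+2NBDG- and 0.35 without splenic B220-2NBDG+, and DESeq2 put it at -0.032 over all cells.

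Some rises over all cells rested on few cells. Of the 1278 Ly6c2 UMIs in lambda cells 377 came from 1 cell, beside a log2 difference of 1.15 over all cells and 0.55 among IgM cells, where it was not called (adjusted p = 0.281). Sag (log2 2.23) had 14 lambda UMIs, 11 of them in 1 cell. Among IgM cells Crisp3 (log2 2.34) had 45 UMIs in 11 cells and was seen in only 2 of the 3 libraries.

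**Figure D5:**
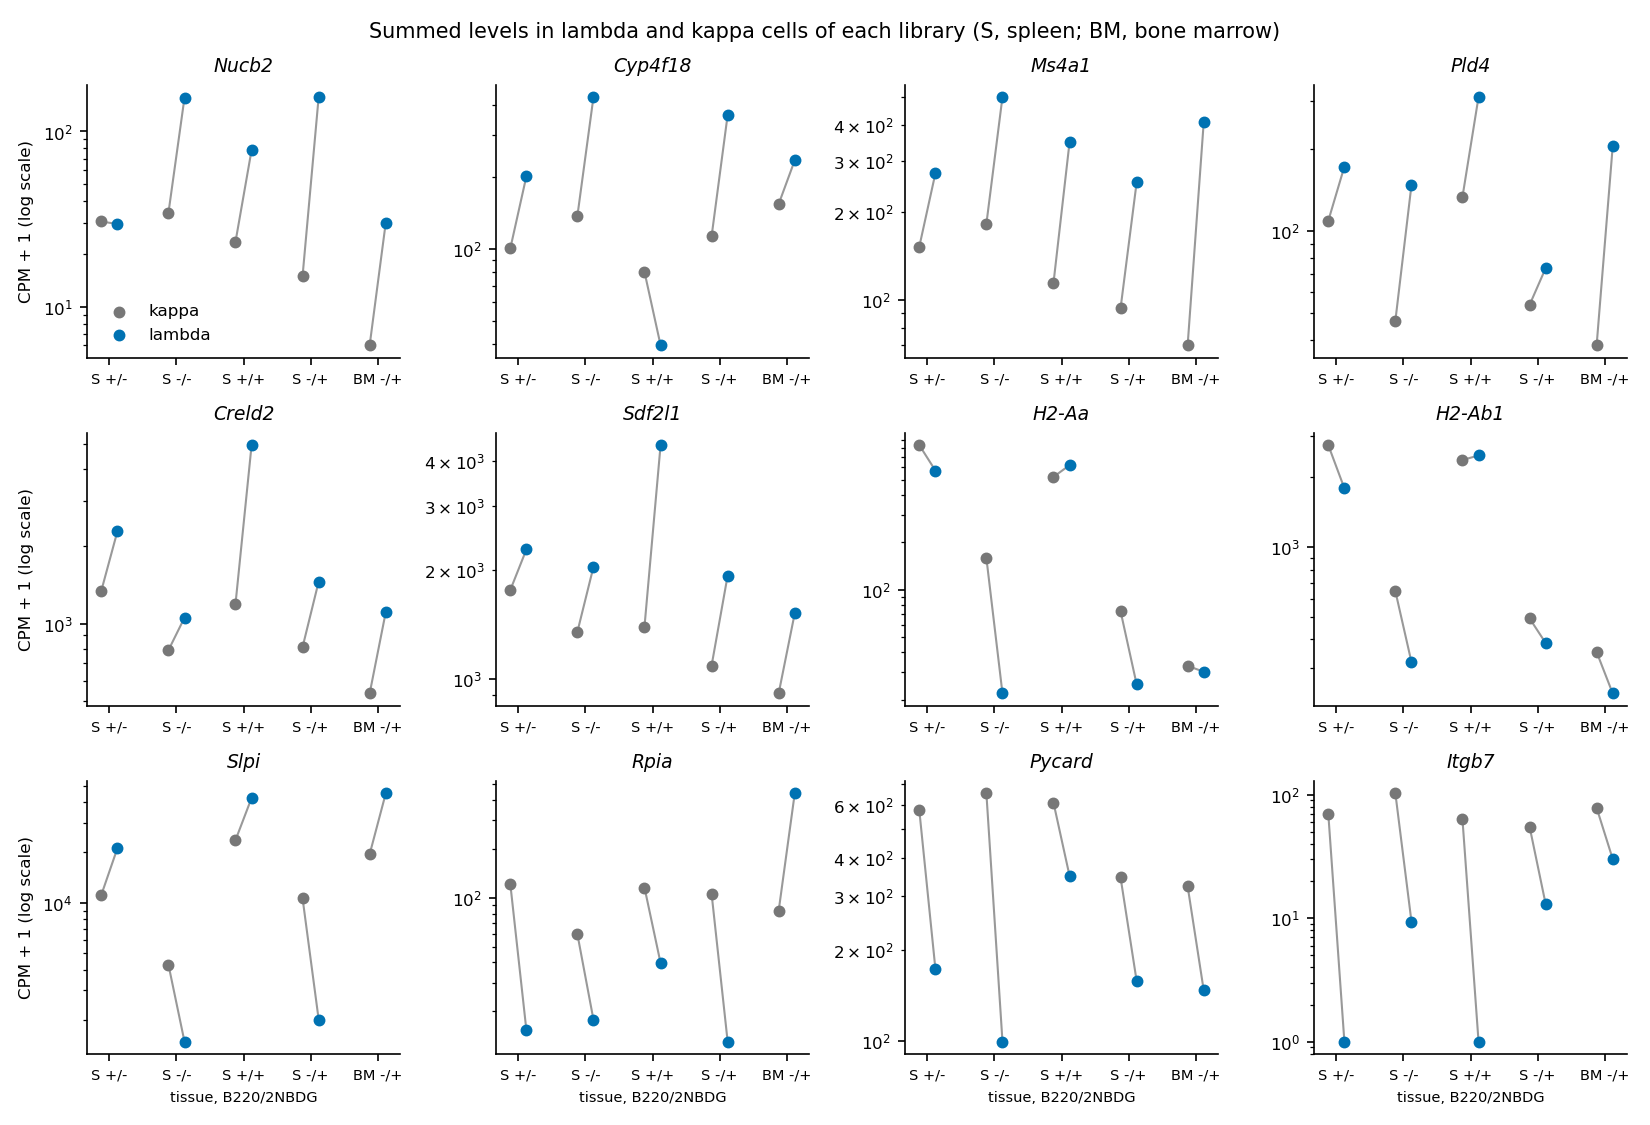
CPM plus 1, on a log axis, of 12 genes in the lambda and kappa cells of each library, 1 point per library and class. S and BM on the horizontal axis stand for spleen and bone marrow. Lambda cells lie above kappa cells in all 5 libraries for Ms4a1, Pld4, Creld2 and Sdf2l1, which for Pld4 and Creld2 rests on single cells in 2 libraries each, and below them in all 5 for Pycard and Itgb7.

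Endoplasmic reticulum folding genes, which serve antibody secretion, had a list median above that of all genes. All 30 of the list were tested; 2 rose and 0 fell in either fit, while 25 of 30 over all cells and 24 of 30 among IgM cells had a difference above 0, with list medians of 0.16 and 0.20. Among all genes tested 34.8% and 39.7% were above 0, and 0.701% and 0.343% were called. The 2 that rose were Creld2 and Sdf2l1, both cofactors of folding that are induced by unfolded protein. Creld2 stood at 2288, 1054, 4952, 1457 and 1108 CPM in lambda cells in the library order above, and at 1342, 787, 1192, 809 and 534 CPM in kappa cells, higher in 5 of 5 libraries. Single cells weighed in this: 1 cell held 87 of 160 UMIs in B220+2NBDG- and 1 held 24 of 38 in bone marrow, and without them lambda cells were at 1293 and 499.9 CPM, below kappa cells. Its log2 difference was 0.84 (SE 0.16; edgeR adjusted p = 3.48e-05) and 0.75 (SE 0.17; adjusted p = 0.00672) in the 2 fits. Sdf2l1 differed by 0.66 and 0.69 and was higher in 5 of 5 libraries. Hspa5 (0.49), the main chaperone BiP, Pdia4 (0.54) and Mzb1 (0.55), which assists IgM assembly, were higher in all 5 libraries but did not pass over all cells. Among IgM cells without cycling cells Creld2 was at 0.44 and Sdf2l1 at 0.54, and neither passed. Creld2 also missed the threshold there without B220+2NBDG- (0.66) or splenic B220-2NBDG+ (0.73), and Sdf2l1 without any 1 of the 3 libraries (0.59 to 0.80).

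Of 20 plasma cell identity genes, all tested, 3 rose over all cells (Creld2, Ly6k and Ly6c2) and 1 fell. The gene that fell, Tnfrsf17, encodes BCMA, a survival receptor of plasma cells (log2 -0.77, SE 0.20; edgeR adjusted p = 0.0273; lower in 5 of 5 libraries), and it did not pass among IgM cells (-0.44). Sdc1 (0.10), Xbp1 (-0.18), Prdm1 (-0.58) and Irf4 (-0.21) did not pass in either fit.

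H2-Aa and H2-Ab1, genes of antigen presentation by MHC class II, fell in lambda cells. Of 10 list genes 7 were tested; these 2 fell in both fits, and 6 of 7 had a difference below 0, with medians of -0.35 over all cells and -0.63 among IgM cells. Of all genes tested 65.2% and 60.3% were below 0. H2-Aa (chr17:34282744-34287823) encodes the alpha chain of I-A. It stood at 572, 21, 619, 24.1 and 29.2 CPM in lambda cells in the library order above and at 830, 158, 521, 72.2 and 31.9 CPM in kappa cells. The libraries sorted as B220+ were high in both classes, the lambda value was the lower in 4 of 5, and B220+2NBDG+ went the other way. The log2 difference was -1.12 (SE 0.24; edgeR adjusted p = 0.000892) over all cells and -1.64 (SE 0.29; adjusted p = 1.80e-05) among IgM cells, where lambda cells were lower in 3 of 3 libraries. H2-Ab1, the beta chain, fell by 0.66 and by 1.01, and its IgM value missed the threshold without splenic B220-2NBDG+ (-0.95). Without the B220-2NBDG- library the IgM value of H2-Aa was -0.92 and no longer passed. Cd74, the invariant chain that guides class II molecules, had a difference above 0 (0.46 and 0.37) and did not pass.

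Further genes that fell in both fits were Fcer1g, the gamma chain shared by Fc receptors (-1.95 and -2.58), Napsa, an aspartic protease (-1.81 and -2.46), Spon1 (-2.32 and -3.40) and Trp53inp1 (-0.71 and -0.83). Spon1 rested on 5 lambda UMIs over all cells and 2 among IgM cells, and Fcer1g on 14 and 9. Over all cells Fcer1g was lower in 4 of 5 libraries and higher in B220+2NBDG+ (193 against 123 CPM). Fcer1g was detected in 8 of 162 lambda cells (4.94%) and 20.3% of kappa cells, and Napsa in 11 (6.79%) and 35.3%. Without B220-2NBDG- Fcer1g (-1.69), Napsa (-1.16) and Spon1 (-1.78) missed the threshold over all cells, as did Napsa (-1.90) and Spon1 (-3.08) among IgM cells. Spon1 (-2.27 and -3.10) and, among IgM cells, Trp53inp1 (-0.83) also missed it without splenic B220-2NBDG+. All 12 genes that fell among IgM cells were lower in 3 of 3 libraries, and 5 of the 11 that rose were higher in all 3. Over all cells 9 of the 19 higher and 25 of the 33 lower genes kept their direction in all 5. Where few lambda UMIs were counted, as in Hist4h4 with 1 among IgM cells, the direction says little. The 12 genes include Slpi (chr2:164354070-164389095), a secreted inhibitor of serine proteases. Among IgM cells Slpi stood at 2363, 1108 and 2201 CPM in the lambda cells of B220+2NBDG-, B220-2NBDG- and splenic B220-2NBDG+ and at 3641, 2962 and 6076 CPM in kappa cells. The log2 difference there was -1.22 (SE 0.18; edgeR adjusted p = 2.27e-08). Over all cells it was -0.30 and did not pass (adjusted p = 0.661). There 3 lambda cells weighed on the sum of 4995 UMIs, with 1494 UMIs in 1 cell of bone marrow, 1323 in 1 of B220+2NBDG- and 891 in 1 of B220+2NBDG+. Without these cells lambda cells were at 2106, 2525 and 9227 CPM. Apoe, the lipid carrier, fell by 1.21 among IgM cells (-0.84 and not called without B220-2NBDG-) and did not pass over all cells (-0.84).

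Itgb7, Ccr10, Cxcr3 and Klf2, genes of homing and adhesion, fell over all cells, where IgA was the rarer among lambda cells, and were not called among IgM cells. Of 20 list genes 15 were tested over all cells, and these 4 fell. Of the 12 tested among IgM cells 0 passed in edgeR, with 2 at an unadjusted p under 0.05, and Cxcr3 was not tested. Itgb7 (chr15:102215995-102231944), the beta chain of a gut homing integrin, stood at 0, 8.38, 0, 12.0 and 29.2 CPM in lambda cells, 6 UMIs in all, and at 69.2, 102, 62.3, 54.3 and 77.4 CPM in kappa cells. The values of the classes did not overlap. Its log2 difference was -3.34 (SE 0.47; edgeR adjusted p = 1.35e-09), and -1.96 (SE 0.79; adjusted p = 0.763) among IgM cells. Ccr10, a chemokine receptor of IgA plasma cells, differed by -2.60 (adjusted p = 2.04e-07) and by -0.38 among IgM cells (adjusted p = 0.997). Klf2 differed by -1.79 and -0.55, and over all cells it missed the threshold without B220-2NBDG- (-1.66). Cxcr3 (-2.61, 3 lambda UMIs) missed it without B220+2NBDG-, B220-2NBDG- or splenic B220-2NBDG+ (-2.53 to -1.78). Vim, an intermediate filament gene, differed by -3.69 and -1.84. With the lambda variable genes counted, which adds 30 IgA cells, Ccr10 over all cells was -0.94, Klf2 -0.82, Itgb7 -1.81 and Vim -2.15. The difference between the fits was not tested.

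Pycard (chr7:127989708-127993867), the inflammasome adaptor ASC, had the lowest p over all cells. It stood at 172, 98.5, 348, 157 and 146 CPM in lambda cells in the library order above and at 574, 652, 608, 344 and 322 CPM in kappa cells, lower in 5 of 5 libraries, and was detected in 38.3% against 67.8% of cells. The log2 difference was -1.92 (SE 0.22; edgeR adjusted p = 1.34e-14). Among IgM cells it was -0.94 (SE 0.26; adjusted p = 0.0686) and did not pass. Cpeb2 had 0 UMIs in the lambda cells, where the rate of the kappa cells would give 12.6. Against a floor of 3 UMIs over the group it was at least 4.21-fold lower, and its call was lost without B220-2NBDG-.

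The list of light chain rearrangement and editing, which holds transcription factors and surrogate light chain partners of the early B cell, gave no call. Of 18 genes 12 were tested and 0 passed in either fit by edgeR, with 0 at an unadjusted p under 0.05 over all cells and 1 among IgM cells, and 11 of 12 were below 0 over all cells, where 65.2% of all genes were, with a list median of -0.21 against -0.16. Of the B-1 cell and marginal zone B cell lists 4 genes each were tested over all cells and 0 passed in edgeR, with 1 of each list at an unadjusted p under 0.05. Of 37 cell cycle genes 16 were tested and 0 passed in edgeR, with 3 at an unadjusted p under 0.05 over all cells and 2 among IgM cells, and with a median of -0.71 over all cells and -0.22 among IgM cells.

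Next to the light chain loci, Rpia was the gene that differed. Rpia (chr6:70765720-70792232), which encodes ribose-5-phosphate isomerase A of the pentose phosphate pathway, lies 38.8 kb from Igkc. It was detected in 10 of 162 lambda cells (6.17%) and in 1458 of 5218 kappa cells (27.9%). In CPM it stood at 14.3, 16.8, 38.7, 12.0 and 437 in lambda cells in the library order above and at 120, 58.7, 115, 105 and 82.1 in kappa cells. Lambda cells were lower in the 4 spleen libraries without overlap, though their values there stand on only 1, 8, 1 and 1 UMIs. They were higher in bone marrow, where 1 cell held 14 of the 26 lambda UMIs. Over all cells the log2 difference was -0.90 (SE 0.31; edgeR adjusted p = 0.177). Without the bone marrow library it was -2.20 (adjusted p = 1.80e-05), and among IgM cells, a fit that has no bone marrow library, it was -2.0 (SE 0.43; adjusted p = 0.0020). With the lambda variable genes counted it was -1.75 over all cells (adjusted p = 3.52e-09). Among IgM cells the call was lost with DESeq2 (-2.04, adjusted p = 0.135), without cycling cells (-1.73) and without B220-2NBDG- (-2.70) or splenic B220-2NBDG+ (-1.91).

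Within 1000 kb of Igkc 7 of 21 annotated genes were tested over all cells. All 7 had a difference below 0, with a median of -0.76, and 0 passed the edgeR threshold, with 1 at an unadjusted p under 0.05, while 65.2% of all genes tested were below 0. Besides Rpia they included Eif2ak3 (-0.76), a kinase of the unfolded protein response, Rnf103 (-0.79) and Krcc1 (-0.49). Among IgM cells 6 of 6 were below 0, with Rpia the only call. Within 1000 kb of Iglc2 10 of 48 genes were tested, 6 were below 0 in either fit and 0 passed in edgeR, with 1 at an unadjusted p under 0.05 over all cells and 0 among IgM cells.

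The B220-2NBDG- library, with 117 lambda and 1127 kappa cells, was also examined alone, without a test. A gene counted as different with a CPM ratio of at least 2, at least 25 CPM and at least 50 UMIs in the higher sum. Of 2697 genes 10 were higher in lambda cells (0.371%) and 133 lower (4.93%), 5.3% in all. The rule was not even-handed, because the lambda sum held far fewer UMIs than the kappa sum. The bar of 50 UMIs was the stricter in the lambda sum, and that of 25 CPM in the kappa sum. A gene thus had to be more abundant to count as higher than to count as lower. The counts of higher and lower genes therefore cannot be compared, and the size of this effect was not tested. With all UMIs as the total the count of lower genes was 32 in place of 133, and with the lambda variable genes counted 82. The highest was Nucb2, 4.67-fold (exact 95% interval 3.48 to 6.22), followed by Cox6a2 (3.18), Pld4 (3.18), Cyp4f18 (3.15, 2.68 to 3.70), Mt2 (3.09), Bmyc (2.82) and Ms4a1 (2.74, 2.36 to 3.17). Among the lower genes, Itgb7 was 12.1-fold lower in lambda cells (4.70 to 44.7), Ccr10 11.5-fold (3.90 to 56.0) and Napsa 9.64-fold (3.73 to 35.6). These folds stand on 4, 3 and 4 lambda UMIs. H2-Aa was 7.55-fold lower (4.08 to 15.8), Crip1 6.73-fold and Pycard 6.62-fold (4.96 to 9.03). Among IgM cells of this library, H2-Aa (7.88-fold) and Napsa (7.93-fold) kept folds near these. Pycard was 1.86-fold and Crip1 1.76-fold lower, short of the ratio of 2. Itgb7 was 3.03-fold lower (0.995 to 15.1) and Ccr10 2.14-fold (0.690 to 10.7), on 3 lambda UMIs each. With 19.5 and 13.7 CPM in kappa cells, both lay under the bar of 25 CPM, so the rule could not call them. Nucb2 was 4.62-fold higher, Cyp4f18 2.67-fold and Ms4a1 2.40-fold. Anxa2 had 0 UMIs in lambda and 405 in kappa cells, at least 14.5-fold lower against a floor of 3 UMIs; among IgM cells it stood at 0 and 8.02 CPM.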

How the data were processed

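Per the labels' protocols, the libraries were made with 10x Genomics 3' chemistry, version 2. The authors deposited raw UMI counts, whole numbers per gene and barcode for 33456 genes, made with Cell Ranger 2.1 on GRCm38, per the submitters' processing notes. For the transcript annotation and the barcode filter: not given in the sources used here. Symbols, coordinates (from 1) and 266 immunoglobulin genes were taken from GENCODE M21 by gene ID, of which 32655 matched. The 5476 barcodes hold 66294096 UMIs in all, with medians per cell of 9824 to 15502 by library, and 11 barcodes of 5465 distinct ones occur in more than 1 library. Iglc1, Iglc3 and Ighd were not analysed here, and a few list genes are not reported here.

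UMIs were summed per library over lambda and over kappa cells without immunoglobulin genes. Sums were compared with edgeR 4.0.16 (R 4.3.3), quasi-likelihood test, TMM factors, filterByExpr, the library as a blocking term, and p-values adjusted by Benjamini-Hochberg with a threshold of 0.05. The block joins the lambda and kappa sums of the same library, so the pairing comes from the shared pool of mice and the shared reactions. Libraries entered a fit with 5 or more lambda cells. Shares and medians were compared over libraries by exact sign-flip permutation (SciPy 1.17.1, Python 3.11.15), and doublets were called with Scrublet in scanpy 1.11.5. The calculation was tested on simulated data.

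The text names up to 15 called genes per direction and fit with the largest change, members of 27 gene lists (409 of 410 genes matched), genes within 1000 kb of Igkc or Iglc2, the 10 highest and lowest ratios in B220-2NBDG-, and a fixed set that includes Slpi, Sdc1 and Jchain. The members and the lists were chosen with earlier results of these data known. Alternatives were DESeq2 1.42.0, no TMM factors, no expression filter, no block, light chain shares of 90% or 30 UMIs, Jchain, cycling cells, doublets or T cell UMIs left out, each library left out, all UMIs as the total, and, added after seeing the data, lambda variable genes counted or members led by Iglv1 or Iglv2 only.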

Additional observations from a re-analysis of the deposited data

How the results depend on the processing

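The chief limit is the number of lambda cells outside B220-2NBDG-. Over all cells, 19 genes higher and 33 lower became 42 higher without TMM factors, 5 lower with DESeq2, 10 and 18 without cycling cells, 11 and 13 with Iglv2-led members only, and 3 and 7 with Iglv1-led members only. Without the library block, which drops the pairing of sums within a library, they became 1 and 2, with 586 genes at an unadjusted p under 0.05. Leaving out each library in turn gave 7 to 22 higher and 12 to 32 lower, with 7 and 18 without B220-2NBDG- and 10 and 12 without splenic B220-2NBDG+. Among IgM cells, 11 higher and 12 lower became 25 and 21 without TMM factors, 4 lower with DESeq2, 5 higher with no expression filter, 5 and 6 without cycling cells, and 20 lower with the lambda variable genes counted. There, edgeR called 0 and 0 without the block, with 243 genes at an unadjusted p under 0.05, and leaving out each library gave 3 to 14 higher and 5 to 12 lower (3 and 5 without B220-2NBDG-, 5 and 5 without splenic B220-2NBDG+). Of the 52 genes called over all cells 16 were also called by DESeq2, 17 without B220-2NBDG-, 22 without cycling cells and 40 with the variable genes counted.

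Single genes changed sign in a few settings: over all cells Ly6k with DESeq2 (-0.032) and in Iglv1-led members (-0.90), Ly6c2 in Iglv1-led members (-0.33) and Sag without B220+2NBDG- (range over libraries left out -0.12 to 2.52), and among IgM cells Bmyc without B220-2NBDG- (-0.031 to 1.34). With the variable genes counted, lambda shares moved to 12.8% in B220-2NBDG-, 4.60% in splenic B220-2NBDG+ and 2.99% in bone marrow, and the heavy chain percent difference turned to 1.20. At a heavy chain share of 90% the IgM difference turned to -1.33 points. Leaving out each library, the difference in UMIs ranged from -306 to 135, in Jchain from -1.17 to 3.46% and in heavy chain RNA from -1.57 to 0.16%. Within B220-2NBDG-, 133 lower genes became 32 with all UMIs as the total and 82 with the variable genes counted. The cause of these changes was not tested.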
